A study of Mus musculus with 12 samples.

Results

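The transcripts described here are the entries with a listed length of 3000 or more in an RNA-seq and ribosome profiling study of fibroblasts, the cells of connective tissue, taken from mouse embryos. They were taken as transcript IDs whose second column in the deposited tables was 3000 or more and that had at least 10 counts in each of the 12 libraries. Of 63759 IDs in the tables, 24092 met the count minimum, and 97 of these had a listed length of 3000 or more. Another 71 IDs of that length did not meet the minimum, 66 of them because of low counts in both assays and 5 because of low footprint counts alone. Neighbouring IDs whose counts were close to equal in every library, as can arise where isoforms of a gene take the same reads, were joined into read-sharing groups. The 97 IDs formed 73 such groups, of which 62 held 1 ID, 10 held 2 and 1 held 15. Each group was represented by its ID with the highest RNA level and is called a long transcript below, although values of single isoforms in a group are uncertain. The comparison class was the 23300 IDs with a listed length above 100 and below 3000 and the same count minimum, in 15691 groups.

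All cells were wild-type C57BL/6 fibroblasts, grown to confluence and synchronised with Dex. Control cells stayed at 35 °C, and the others were moved to 38.5 °C for 2 h from 24 h after Dex, a step that the labels abbreviate as WTS. RNA and ribosome footprints were each sequenced from both treatments with 3 replicates, numbered 1 to 3, from experiments that the design text calls independent. The labels used here give no harvest time for the control cells, so time since synchronisation and warming cannot be told apart.

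Ribosome profiling sequences the short stretches of mRNA that a translating ribosome covers and protects from nuclease. Set against RNA-seq of the same cells, the footprints of a transcript show how much of its RNA is being read by ribosomes, a ratio often called translational efficiency. Because ribosomes load at the start of a coding region and then move along it, the number of ribosomes per unit of coding length depends on how often they load and how fast they move. Lower ribosome density on longer coding regions has been described in several organisms. Many of the longest mammalian proteins are extracellular matrix, cytoskeletal, motor and membrane receptor proteins, but the IDs could not be paired with gene names here, since 0 of them occurred in the mouse name tables at hand. The roles of the single transcripts are therefore not given, and no sequence is shown.

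The tables carry no header and no unit for the listed length. It ran from 16 to 33458 with a median of 368 over the 46419 IDs that had one, and the 17340 IDs without one held 0 counts in total. Remainders of 0, 1 and 2 after division by 3 were found for 15432, 15345 and 15642 IDs, so the values are not coding lengths in bases. Protein lengths in residues are of such a size, with titin by far the largest mammalian protein, but no sequence at hand allowed the unit to be tested. Among the 97 long IDs the listed length ran from 3001 to 7708 with a median of 3954. It was below 4000 for 51 IDs, from 4000 to below 6000 for 42 and at least 6000 for 4.

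Library totals were 8686742 to 12212227 counts in RNA and 8449802 to 82560281 in footprints, the largest being the warm footprint library of number 1. The lowest count of a long ID was 10 and its median per library was 269 to 1670 in footprints and 729 to 1101 in RNA, so counting error bears most on the footprints of the less abundant transcripts. Libraries numbered 1 stood apart from numbers 2 and 3. Between numbers 2 and 3 of a group, the chi-square per degree of freedom of the counts over 16334 read-sharing groups was 1.27 to 4.39, which is above sampling noise, and against number 1 it was 29.4 to 93.4. Levels are given as CPM, which are counts scaled to a common library size, after TMM scaling of the 12 libraries together. This scaling assumes that most transcripts do not differ. Fold changes and ratios are on the log2 scale.

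Per unit of listed length, the long transcripts were less abundant than the comparison class in every library, and the gap was wider in footprints than in RNA. Their median RNA level was 15.0 to 18.1 CPM per 1000 of listed length over the 6 RNA libraries, where the comparison class had 27.1 to 27.9. Their median footprint level was 6.52 to 7.26 CPM per 1000 over the 6 footprint libraries, where the comparison class had 24.98 to 25.68. No library of either assay overlapped between the classes. The order rests on the listed length being proportional to the counted length, which was not tested. It also depends on the count minimum, which was the same for IDs of every length. After division by length, this minimum sets a higher floor for shorter IDs and so acts in the direction of the gap. Its part in the gap, and in the wider gap of footprints, was not tested, so these values describe only IDs that met the minimum. Without division by length, the median long transcript had 60.8 to 66.8 CPM in RNA and 24.8 to 26.0 CPM in footprints. Together the 73 long transcripts held 1.43% to 1.94% of RNA counts and 0.945% to 1.4966% of footprint counts.

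Most long transcripts carried fewer footprints than their RNA level would give at the typical ratio. Between the paired libraries of a treatment and number, the median log2 ratio of footprint to RNA CPM at 35 °C was -1.10, -0.76 and -0.82 for numbers 1, 2 and 3, and it was 0.01, -0.01 and 0.00 in the comparison class. After warming it was -1.05, -1.04 and -0.99, against -0.02, 0.00 and 0.01. The gap between the class medians was thus -0.96 ± 0.14 (SD over the 6 pairs of libraries, which share their treatment or number). Without the log, the median footprint to RNA ratio was 0.468 to 0.590 for long transcripts and 0.989 to 1.010 for the comparison class. Between 60 and 64 of the 73 long transcripts lay below the median of the comparison class in each pair, and 39 to 49 lay below its lower quartile. The ratio was below 0 in all 6 pairs for 54 of them, above 0 in all 6 for 8 and of mixed sign for 11. How all groups divided by sign over the 6 pairs is not given here. Since the zero of this ratio is set by the scaling between assays, the gap to the comparison class and not the sign is the measured quantity.

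**Figure D1:**
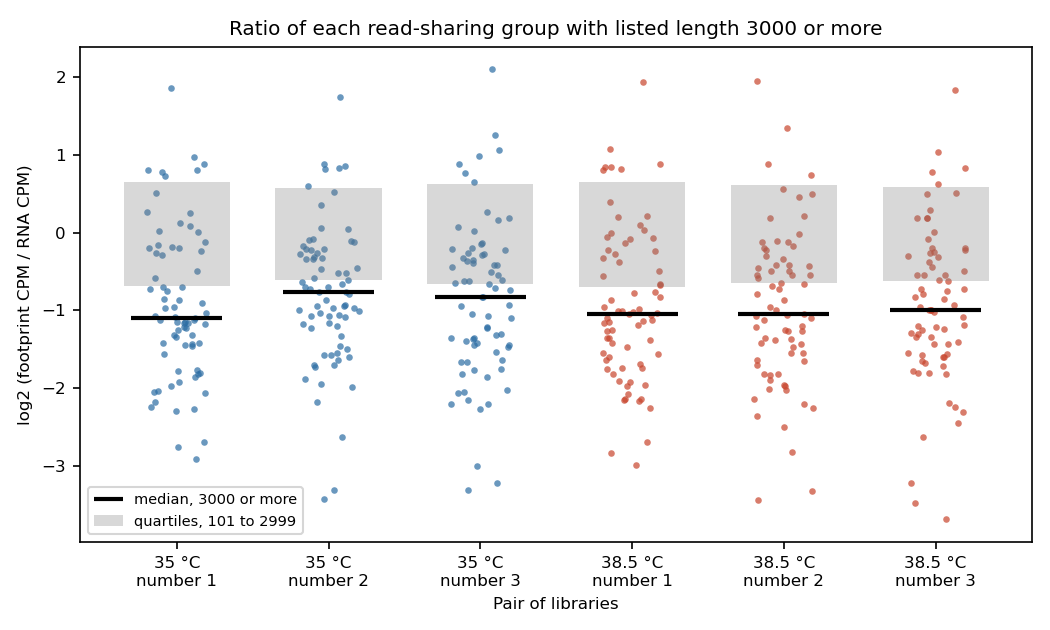
Each point is one of the 73 long read-sharing groups, with the log2 ratio of footprint CPM to RNA CPM on the vertical axis in the 6 pairs of libraries (blue, 35 °C; red, 38.5 °C; replicate numbers on the horizontal axis). Black bars are their medians, from -1.10 to -0.76, and grey boxes span the quartiles of the 15691 groups with listed length above 100 and below 3000; in each pair the black bar lies below the grey box.

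In the test of footprints against RNA, edgeR's quasi-likelihood test over 26176 IDs with Benjamini-Hochberg adjustment, 42 of the 73 long transcripts had a lower ratio and 4 a higher one at 35 °C at an adjusted p under 0.05. Over all IDs tested, 25.4% were called lower and 22.8% higher. In the comparison class 25.8% were called lower and 23.2% higher. After warming 42 were again called lower and 4 higher, where 25.9% and 23.1% of all IDs were, and 41 long transcripts were lower and 4 higher at both temperatures. When replicate number entered the fit as a block, 50 were lower and 8 higher at 35 °C, and 54 and 9 after warming, where 32.8% and 32.1% of all IDs at 35 °C and 34.0% and 32.5% after warming were called. The median estimate was -0.93 at 35 °C and -1.01 after warming over the long transcripts, and -0.00 and -0.01 over all IDs. With total-count scaling, which sets the zero elsewhere, 54 long transcripts were lower and 1 higher at 35 °C, beside 33.2% of all IDs lower and 10.9% higher. The higher calls are few and went from 4 to 2 without RNA replicate 2 or 3 at 35 °C. The median long transcript had 60.8 to 66.8 RNA CPM where the comparison class had 11.0 to 11.5, and the part of this depth in the number of calls was not tested.

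The lowest ratio belonged to the longest member, with a listed length of 7708 in a group of 2 IDs. At 35 °C its RNA was 185, 160 and 158 CPM in numbers 1, 2 and 3 and its footprints were 27.2, 14.9 and 15.9 CPM. After warming its RNA was 127, 150 and 139 CPM and its footprints were 15.9, 13.7 and 10.8 CPM. Every footprint value lay far below every RNA value, and the ratio was -3.11 ± 0.24 at 35 °C (SE; edgeR adjusted p = 3.02e-06) and -3.36 after warming (edgeR adjusted p = 1.90e-06). The next lowest, with a listed length of 5370 and a ratio of -3.03 ± 0.21 at 35 °C (SE; edgeR adjusted p = 1.94e-06), stands only 4 rows away in the tables with RNA of 126 to 140 CPM and similar proportions between libraries. The pair may overlap and count some of the same reads, which was not tested. A ratio below -2 in all 6 pairs of libraries was found for 4 of the 73 and a ratio below -1 in all 6 for 24. The shares of all groups under these rules are not given, so these counts describe the long transcripts alone.

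The longest members were low as a set of 3. The member of listed length 7346 had 412, 249 and 264 RNA CPM and 90.8, 55.1 and 57.0 footprint CPM at 35 °C, a ratio of -2.19 ± 0.28 (SE; edgeR adjusted p = 7.48e-05). The member of listed length 6865 was rare, at 7.89, 8.54 and 10.2 RNA CPM and 2.16, 2.30 and 2.43 footprint CPM at 35 °C, with 19 to 34 footprint counts behind these values, and had a ratio of -1.95 ± 0.23 (SE; edgeR adjusted p = 4.17e-05). Thus each transcript of at least 6000 had fewer footprints than RNA in CPM in every pair of libraries, whether it was common or rare.

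A few long transcripts went the other way. The highest ratio was found at a listed length of 4374, where RNA was 478, 304 and 219 CPM and footprints were 1747, 1024 and 941 CPM at 35 °C. After warming RNA was 366, 257 and 287 CPM and footprints were 1405, 997 and 1026 CPM. All footprint values lay above all RNA values, and the ratio was 1.89 ± 0.34 at 35 °C (SE; edgeR adjusted p = 0.000876) and 1.91 after warming (edgeR adjusted p = 0.000777). The next highest, of listed length 3709, had 55.6, 75.8 and 55.8 RNA CPM and 97.6, 137 and 134 footprint CPM at 35 °C, a ratio of 0.98 ± 0.25 (SE; edgeR adjusted p = 0.00716). The most abundant member, of listed length 5647, held 0.605% to 0.678% of all RNA counts and 0.344% to 0.598% of footprint counts. Its RNA was 6209, 5810 and 5831 CPM and its footprints were 8883, 4597 and 4278 CPM at 35 °C, so the ratio was above 0 in number 1 and below 0 in the others and passed no test (-0.01 ± 0.33, SE; edgeR adjusted p = 0.987).

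**Figure D2:**
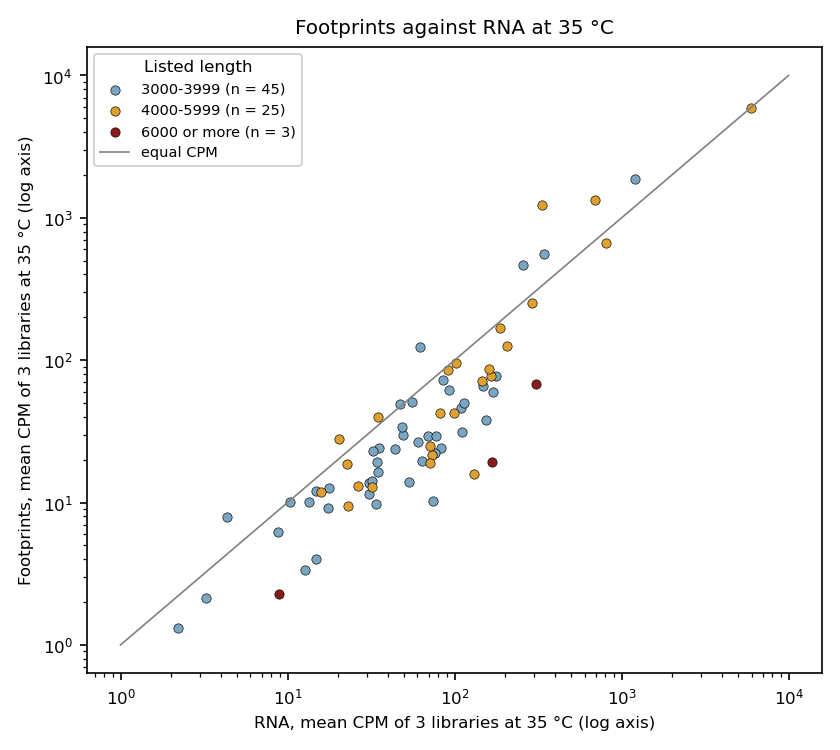
Mean footprint CPM against mean RNA CPM at 35 °C (3 libraries each, both axes logarithmic) for the 73 long groups, coloured by listed length; the grey line marks equal CPM. Most points lie below the line, the 3 groups of listed length 6000 or more among them, and the group of listed length 4374 lies farthest above it.

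The ratio fell stepwise with listed length below 3000, and the long transcripts lay at its lower end. The mean of the medians in the 3 numbers at 35 °C was 0.39 for 2684 groups of listed length above 100 and up to 200, 0.15 for 5026 up to 400, -0.09 for 5279 up to 800, -0.38 for 2130 up to 1500 and -0.59 for 572 above 1500 and below 3000. It was -0.90 for the 45 groups from 3000 to below 4000, -0.68 for the 25 from 4000 to below 6000 and -2.19 for the 3 of 6000 or more. After warming these last values were -1.06, -0.82 and -2.30. The steps down to the class below 3000 were seen in all 6 pairs of libraries, while the class from 4000 lay above the class from 3000 in all 6, and the last class rests on 3 groups. Across the 15764 long and comparison groups, Spearman's rho between listed length and ratio was -0.244 to -0.313 over the 6 pairs (Pearson's r with log2 length -0.241 to -0.310). Within the 73 long transcripts alone it was -0.00 to 0.04, with r of -0.139 to -0.044, so no trend was seen there. These correlations are descriptions across transcripts of the same libraries. The 10 transcripts just inside the limit, from 3001 to 3056, had a median ratio of -1.21 (range -1.82 to 0.46). The 10 just outside it, from 2910 to 2998, had -1.04 (range -1.67 to 0.36). No step was thus seen at 3000, but a group with IDs on both sides of the limit can enter both sets. Transcripts of 3023 inside and 2976 outside had ratios of -1.27 and -1.27, and those of 3026 and 2990 had -0.48 and -0.48. Reads shared across the limit would make the sets alike, and their part was not tested.

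**Figure D3:**
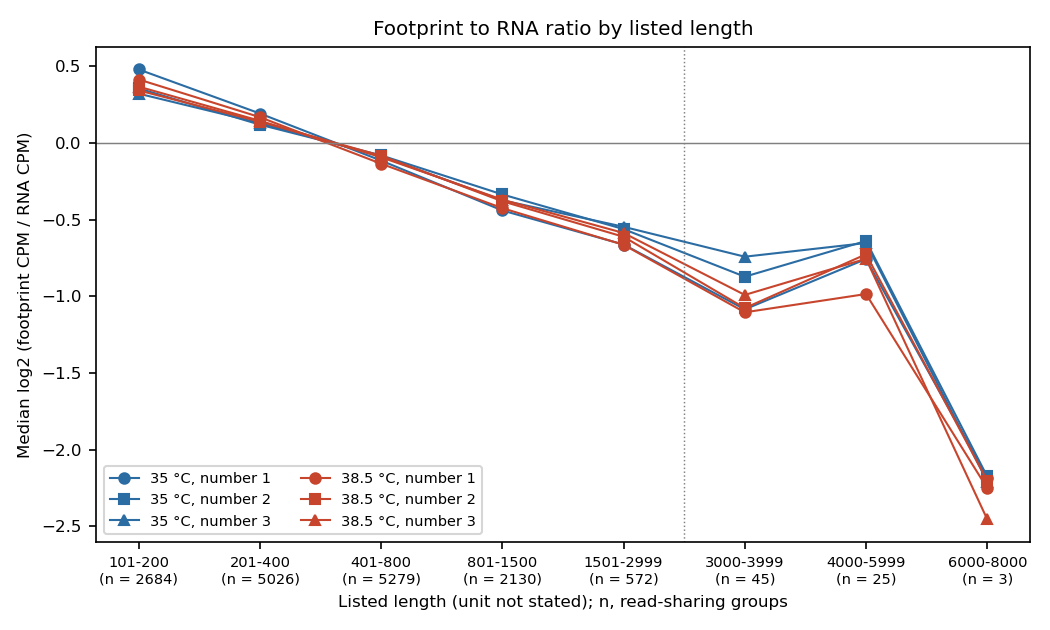
Median log2 ratio of footprint CPM to RNA CPM by class of listed length, with one line for each of the 6 pairs of libraries (colour, temperature; marker, replicate number) and the number of read-sharing groups under each class. The lines fall from between 0.32 and 0.48 in the first class to between -1.10 and -0.74 in the class from 3000 to below 4000; the last class holds 3 groups, and the dotted line marks a listed length of 3000.

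The RNA level also differed between the classes, and the gap in ratio was present at each level. Among transcripts below 50 RNA CPM the median ratio at 35 °C was -0.74 for 30 long and 0.00 for 13985 comparison groups. Between 50 and 150 CPM it was -1.29 for 26 and -0.02 for 1313, and at 150 CPM or more -0.43 for 17 and 0.02 for 393. The gap at 35 °C was therefore -0.74, -1.27 and -0.44, and after warming it was -0.79, -1.37 and -0.59. In the most abundant range, number 1 gave higher ratios than the other numbers in both classes, with -0.20 against -0.64 and -0.45 for long transcripts and 0.36 against -0.13 and -0.19 for the comparison class at 35 °C.

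How reproducible a transcript's ratio was can be read from the agreement between numbers. Across the 73 long transcripts the ratios of 2 numbers of a treatment correlated at r = 0.918 to 0.959 (Spearman's rho 0.905 to 0.934), each from different pairs of libraries. The spread between transcripts, with quartiles of -1.46 and -0.20 in number 1 at 35 °C and extremes of -2.91 and 1.87, was thus far larger than that between numbers.

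With warming, footprints of long transcripts shifted downwards in numbers 1 and 2 and hardly in number 3, and their RNA shifted downwards in number 1 alone. The median log2 change of footprints was -0.18, -0.14 and -0.01 within numbers 1, 2 and 3, and 56, 53 and 39 of the 73 were lower. In the comparison class the median change was -0.01, 0.00 and 0.00. The median change of RNA was -0.20, 0.00 and 0.03, with 63, 35 and 35 lower, and -0.00, 0.01 and 0.00 in the comparison class. The median change of the ratio was -0.02, -0.15 and -0.10, with 38, 56 and 51 lower, and 0.01, -0.00 and -0.00 in the comparison class. Averaged over numbers, the gap to the comparison class was -0.11 ± 0.09 for footprints, -0.06 ± 0.12 for RNA and -0.09 ± 0.06 for the ratio (SD, n = 3 numbers), so for RNA it was smaller than the spread between numbers, and without number 1 it was 0.01. In whole cultures, fewer cells with a transcript and less of it per cell cannot be told apart.

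**Figure D4:**
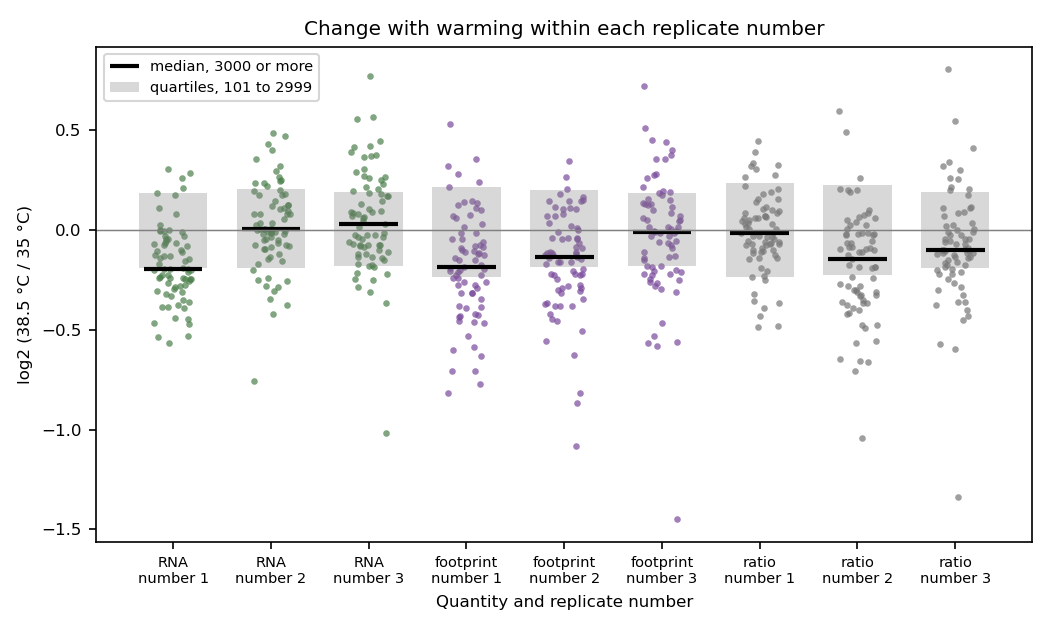
Log2 change from 35 °C to 38.5 °C of RNA, footprints and their ratio within each replicate number for the 73 long groups (points), with their median (black bar) and the quartiles of the comparison class (grey box). The median bar is lowest for RNA and footprints of number 1, at -0.20 and -0.18, and lies at -0.01 for footprints of number 3.

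Longer members had the lower changes in number 1. Among the long transcripts, log2 listed length and the change of RNA correlated at r = -0.528 in number 1, -0.114 in number 2 and -0.151 in number 3 (Spearman's rho -0.499, -0.194 and -0.165; 73 transcripts of the same pair of libraries). For footprints r was -0.443, -0.071 and -0.209 (rho -0.407, -0.103 and -0.141). In the comparison class r in number 1 was -0.084 for RNA and -0.029 for footprints. In numbers 2 and 3 it was 0.002 and 0.060 for RNA and -0.032 and 0.008 for footprints. In number 1, median RNA changes were -0.13, -0.24 and -0.53 for the classes from 3000, from 4000 and from 6000, and footprint changes were -0.11, -0.27 and -0.42. The first 2 of these classes hold 45 and 25 groups and the last 3. Below 3000 the order in number 1 was the same, with RNA changes of 0.04, 0.02, -0.01, -0.05 and -0.10 from the shortest to the longest class and a footprint change of -0.05 in the longest. In number 3 the RNA change below 3000 instead went from -0.01 in the shortest class to 0.05 in the longest, and in number 2 from 0.03 to 0.02. The mean footprint change over the numbers had a median of -0.07 in the 10 transcripts just inside the limit of 3000 and -0.05 in the 10 just outside it. No step was seen here either, with the same caveat that the sets may share reads. The warm footprint library of number 1 had 82560281 counts and its control 23393113, and the part of this difference in the result was not tested.

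Footprints were lower after warming in all 3 numbers for 31 of the 73 long transcripts and higher in all 3 for 9, where 22.0% of all groups with the count minimum were lower and 22.0% higher. For RNA these numbers were 19 and 6, where 17.9% of all groups were lower and 18.9% higher. Both assays were lower in all 3 numbers for 18 long transcripts and higher for 2, where the shares of all groups were 9.02% and 9.34%. As unpaired libraries, the 3 warm footprint values all lay below the 3 control values for 8 long transcripts and all above for 2, beside 6.74% and 7.56% of all groups. In RNA 8 lay below and 1 above, beside 4.65% and 5.98%.

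No long transcript passed the test of warming without a replicate block. In RNA, edgeR called 0 of 73, beside 0.0% of all 27223 IDs tested in either direction, with 1 long transcript at an unadjusted p under 0.05, beside 2.22% of IDs higher and 1.89% lower at that limit. DESeq2 also called 0, beside 0.0955% of IDs higher and 0.0698% lower, shares over all IDs tested, of which 21395 had an adjusted p. In footprints, edgeR called 0 of 73, beside 0.0149% of 26920 IDs in each direction, with 5 at an unadjusted p under 0.05, all of them lower, beside 2.98% of IDs lower and 3.66% higher. DESeq2 also called 0, beside 0.149% of IDs higher and 0.126% lower. Departures from the group mean correlated between the treatments for libraries of the same number. For number 1, r was 0.840 (RNA) and 0.853 (footprints). Numbers 2 and 3 had 0.485 and 0.585 (RNA), then 0.606 and 0.654 (footprints). Departures within a group cancel out, so a distinct number 1 alone can give numbers 2 and 3 such correlations. The values thus show number 1 as distinct in both treatments and cannot show whether numbers 2 and 3 are paired. A fit blocked on replicate number is given beside this one, with the pairing of numbers 2 and 3 assumed. With the block, 10 of the 73 had lower footprints and 0 higher in edgeR, beside 3.0% of all IDs lower and 3.49% higher. At an unadjusted p under 0.05 these were 18 and 3, beside 12.1% and 11.5%. In RNA with the block, 6 were lower and 2 higher, beside 2.35% and 2.29%. At an unadjusted p under 0.05 these were 12 and 5, beside 8.74% and 8.53%. Upper-quartile scaling gave 10 lower and 0 higher in footprints, beside 3.76% and 2.91% of all IDs, and total-count scaling gave 3 lower and 2 higher in RNA, beside 1.66% and 2.50%. With the block and TMM, 2.91% of the comparison class were lower and 3.69% higher in footprints, and 2.45% and 2.50% in RNA. The median long transcript had a higher CPM than this class in both assays, and the part of this depth in the number of warming calls was not tested.

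The 10 with lower footprints had log2 fold changes of -0.91 to -0.34 with a median of -0.45 (edgeR adjusted p = 0.00677 to 0.0459 with the block and 0.504 to 0.99977 without it). Their footprints were lower in all 3 numbers for all 10, and the warm libraries lay wholly below the controls for 5. Since the fit that picked the 10 used these same libraries, this agreement is not separate support for the calls. Of the 10, 7 had a listed length of 4000 or more, as had 28 of the 73. In RNA the same 10 had log2 fold changes of -0.56 to -0.09, and 5 of them were also called lower in RNA. The lowest and next lowest ratio, 4 rows apart, were both among the 10. So was the group of 15 IDs, which as single IDs would raise the count of lower footprints to 27 of 97. Its representative had 288, 105 and 113 footprint CPM at 35 °C and 186, 91.0 and 91.9 after warming, a blocked log2 estimate of -0.39 (edgeR adjusted p = 0.0190). The most abundant member was a further one, with 8883, 4597 and 4278 footprint CPM at 35 °C and 5442, 3558 and 3524 after warming, a blocked log2 estimate of -0.45 (edgeR adjusted p = 0.0112), while its RNA, at 6209, 5810 and 5831 CPM and then 5305, 5625 and 5359 CPM, had -0.14 (edgeR adjusted p = 0.343 with the block). In both of these, number 1 had the highest footprint value of each treatment.

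The count of lower footprints depended on the tool and the numbers used. DESeq2 with the block called 3, all among the 10, beside 0.91% of all IDs lower and 1.06% higher, and gave no adjusted p for 5 of the 73. Only 18047 of the 26920 IDs tested had an adjusted p, and these shares are over all 26920. Without number 1, 2 or 3 the edgeR fit with the block called 9, 7 and 10, beside 4.9%, 3.03% and 3.13% of all IDs. Of these calls 6, 7 and 9 were among the 10, and 3 were made in all of these fits. Numbers 2 and 3 alone, without a block, gave 9 lower and 2 higher, beside 5.27% and 6.0% of all IDs, and in RNA 1 lower and 1 higher, beside 0.572% and 0.682%. In RNA the fits with the block and without number 1, 2 or 3 called 1, 3 and 9 lower, beside 0.594%, 1.07% and 2.14% of all IDs, and 1, 3 and 4 of these were among the 6. In RNA, DESeq2 with the block called 0, beside 0.345% of all IDs higher and 0.415% lower. Only 13500 of the 27223 IDs tested had an adjusted p there, and these shares are over all 27223. At an unadjusted p under 0.05 DESeq2 with the block had 11 long transcripts lower and 4 higher, beside 3.42% and 2.9% of all IDs.

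Single transcripts are shown for 4 IDs. The ID uc009aty.2 (listed length 3320) had 9.65, 14.3 and 20.6 RNA CPM in numbers 1, 2 and 3 at 35 °C and 8.99, 11.0 and 10.2 after warming. Its footprints were 2.79, 4.84 and 4.45 CPM at 35 °C and 2.01, 2.27 and 1.61 after warming, from 21 to 118 counts. The warm footprint values lay below all controls, whereas in RNA the control of number 1 lay among the warm values. With the block both fell: the log2 estimate was -0.56 ± 0.14 in RNA (SE; edgeR adjusted p = 0.00272) and -0.91 ± 0.23 in footprints (SE; edgeR adjusted p = 0.0279). Without the block the edgeR adjusted p-values were 0.99995 and 0.584. Neither call was made with the block when number 3 was left out (edgeR adjusted p = 0.450 for RNA and 0.118 for footprints). DESeq2 with the block did not call the RNA (adjusted p = 0.331) and gave no adjusted p for the footprints.

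The ID uc009qev.2 (listed length 4850) had 76.1, 69.3 and 67.3 RNA CPM at 35 °C and 60.6, 58.2 and 56.7 after warming. Its footprints were 21.5, 27.5 and 25.7 CPM at 35 °C and 16.0, 15.6 and 17.8 after warming. The treatments did not overlap in either assay. With the block both fell, with log2 fold changes of -0.28 ± 0.09 for RNA (SE; edgeR adjusted p = 0.0465) and -0.57 ± 0.11 for footprints (SE; edgeR adjusted p = 0.00677). Without the block the edgeR adjusted p-values were 0.99995 and 0.504. With the block, the RNA call was not made with total-count scaling (edgeR adjusted p = 0.0711), upper-quartile scaling (edgeR adjusted p = 0.0558) or DESeq2 (adjusted p = 0.202), nor when any number was left out, whereas the footprint call was made without each number (edgeR adjusted p = 0.000245, 0.0381 and 0.00455 without numbers 1, 2 and 3).

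The ID uc008ewo.2 (listed length 3004) had 66.8, 55.9 and 69.4 RNA CPM at 35 °C and 77.3, 78.2 and 79.6 after warming, with no overlap. Its footprints were 16.0, 23.8 and 19.1 CPM at 35 °C and 23.2, 24.0 and 26.1 after warming, where the control of number 2 exceeded the warm value of number 1. With the block RNA rose by 0.29 ± 0.09 (SE; edgeR adjusted p = 0.0378), and the footprint estimate of 0.35 ± 0.11 did not pass (SE; edgeR adjusted p = 0.0803). Without the block the edgeR adjusted p-values were 0.99995 and 0.823. With the block the RNA call was made without number 3 and not without number 1 or 2, and a footprint call was made without number 2 (edgeR adjusted p = 0.0246). DESeq2 with the block did not call the RNA (adjusted p = 0.244).

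The ID uc008gwv.2 (listed length 3157) was the other of the 2 long transcripts that were higher in all numbers and both assays, and passed neither test. Its RNA was 64.8, 75.2 and 93.7 CPM at 35 °C and 73.7, 104 and 99.9 after warming, and its footprints were 25.5, 33.6 and 29.5 CPM and then 27.6, 35.6 and 37.8. The treatments overlapped in both assays, with blocked log2 estimates of 0.24 ± 0.09 in RNA (SE; edgeR adjusted p = 0.0909) and 0.18 ± 0.09 in footprints (SE; edgeR adjusted p = 0.262). When number 3 was left out the RNA passed in the blocked fit (edgeR adjusted p = 0.0186).

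**Figure D5:**
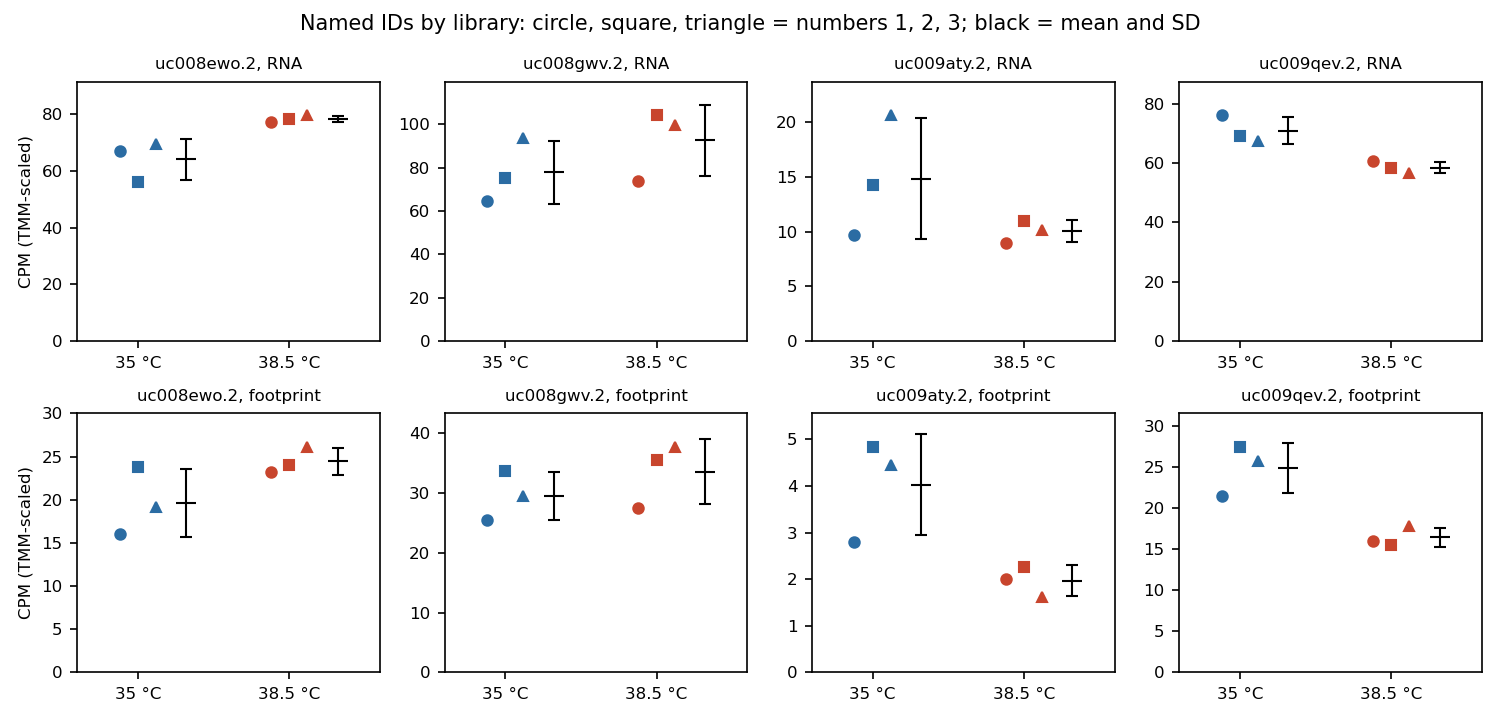
TMM-scaled CPM of RNA (top) and footprints (bottom) of the 4 named IDs in each library at 35 °C (blue) and 38.5 °C (red), with the marker giving the replicate number and black bars the mean and SD of 3. The treatments do not overlap for uc009qev.2 in both assays, for uc009aty.2 in footprints and for uc008ewo.2 in RNA.

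All 4 named IDs had a low footprint to RNA ratio. At 35 °C it was -1.91 ± 0.29 for uc009aty.2, -1.51 ± 0.13 for uc009qev.2, -1.71 ± 0.15 for uc008ewo.2 and -1.40 ± 0.20 for uc008gwv.2 (SE), with edgeR adjusted p-values of 0.000238, 4.17e-06, 7.46e-06 and 0.000160. After warming it was -2.36, -1.83, -1.68 and -1.46. The difference between the temperatures passed no test for any of them.

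The change of the ratio with warming was called for 0 of the 73 long transcripts, and for 0.0% of 26176 IDs in either direction, by edgeR without a block, with 0 at an unadjusted p under 0.05, beside 0.413% of IDs higher and 0.569% lower. It was also called for 0 by DESeq2, and for 0 by edgeR with the replicate block, with 1 at an unadjusted p under 0.05, beside 0.974% of IDs higher and 1.48% lower, or with a block of its own in each assay, with 4 at that limit, all lower, beside 2.59% of IDs lower and 2.21% higher. The median estimate over the long transcripts was -0.07 without and -0.08 with the block, and 0.00 and -0.00 over all IDs, and 51 of the 73 estimates were below 0 without the block and 55 with it. The ratio was lower after warming in all 3 numbers for 21 long transcripts (28.8%) and higher in all 3 for 2 (2.74%). In the comparison class the shares were 12.2% lower and 12.8% higher.

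Long transcripts also differed between number 1 and the other numbers. Over both treatments, 8 of the 73 were more than 2-fold higher in number 1 in RNA and 3 more than 2-fold lower, and in footprints these were 9 and 5. Such differences were found for 15.1% and 19.2% of the long transcripts in RNA and footprints and for 8.11% and 9.65% of the comparison class, with no test of the difference. They ran in the same direction in both assays for 11 long transcripts, 8 higher and 3 lower, and in opposite directions for 0. One of listed length 4001 had 82.9 RNA CPM in number 1 and 11.1 and 10.3 in numbers 2 and 3 at 35 °C, and 99.3, 11.6 and 9.0 footprint CPM. One of listed length 3075 had 1.95, 26.0 and 25.5 RNA CPM and 1.65, 18.1 and 17.9 footprint CPM at 35 °C. For both, the same division was present after warming, at 72.0, 10.5 and 12.5 and at 1.62, 21.8 and 22.6 RNA CPM.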

How the data were processed

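For each of the 12 libraries the authors deposited a table of transcript IDs, each with a raw read count and a listed length that has no stated unit. Per the submitters' processing notes, CASAVA 1.8, STAR 2.7.0 and the mm10 build were used. For the read counter, annotation release and filters, the tool and settings are not given in the sources used here. IDs were joined into read-sharing groups where, within 30 rows and with a mean of at least 10 counts, counts with 1 added differed by at most 1.25 times in each of the 12 libraries. Of the long groups, 9 also held IDs below 3000. Tests ran on the whole table of counts with edgeR 4.0.16 in R 4.3.3 (robust quasi-likelihood F test, TMM, filterByExpr, Benjamini-Hochberg adjustment, threshold 0.05) and DESeq2 1.42.0 as an alternative, after a check on simulated data. RNA and footprints were tested separately, and their ratio in a 12-library fit. The standard error of a fold change is its size over the root of F. Log2 ratios used a pseudocount of 0.5.

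Same-numbered libraries correlated in their deviations from the group mean, which for numbers 2 and 3 can follow from a distinct number 1 alone. The labels do not state the pairing. It rests on these values for number 1 and is an assumption for numbers 2 and 3, in the block and in changes within a number. The transcripts, lists and alternatives were chosen with earlier results of these data known. The named IDs were 2 in each direction with at least 1 CPM in each assay and the same sign of change in all numbers and both assays, ranked by their mean change with the block among those called in both assays, then in 1, then in neither. Gene lists, marker checks of the fibroblasts and sequences could not be applied to IDs without names.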

Additional observations from a re-analysis of the deposited data

How the results depend on the processing

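The gap in the median log2 ratio of footprints to RNA, -0.96, was -1.07 to -0.90 under the alternatives other than single IDs without joining, where it was -0.79, and -0.99 to -0.90 without 1 number. The gaps in change kept within 1 SD of the numbers, from -0.10 to 0.01 for RNA, -0.16 to -0.07 for footprints and -0.12 to -0.06 for the ratio without 1 number. Calls of a lower or higher ratio at 35 °C, 42 and 4, became 54 and 1 with total-count scaling, 50 and 8 with the replicate block and 64 and 5 with the block and total-count scaling. After warming, also 42 and 4, they became 53 and 1, 54 and 9, and 64 and 5. The shares of all IDs called at 35 °C moved too, from 25.4% lower and 22.8% higher to 33.2% and 10.9% with total-count scaling. With the block they were 32.8% and 32.1%, and for the block with total-count scaling they are not given here. Higher calls were 8 at 35 °C and 7 after warming for numbers 2 and 3 alone, 8 and 9 with the block and DESeq2 or upper-quartile scaling, 8 and 8 with the block and joined IDs, 2 to 5 at either temperature without 1 library, and 6 to 8 and 6 to 7 with the block without 1 number. Warming calls, 0 in each assay and direction as fitted without the block, became 6 lower and 2 higher in RNA and 10 lower in footprints with the replicate block, the same with joined IDs. With the block, RNA had 3 lower and 2 higher calls with total-count scaling, 4 and 2 with upper-quartile scaling, and 1 to 9 lower and 0 to 2 higher without 1 number. Of all IDs, 1.66% were lower and 2.50% higher in RNA with total-count scaling, and 1.95% and 2.26% with upper-quartile scaling. Footprints had 9 lower calls with total-count scaling, 10 with upper-quartile scaling, 3 with DESeq2, and 7 to 10 lower and 0 to 2 higher without 1 number. Of all IDs, 2.31% were lower and 3.25% higher in footprints with the block and total-count scaling. Numbers 2 and 3 alone gave 1 lower and 1 higher in RNA and 9 lower and 2 higher in footprints. In all, 228 of these counts and gaps kept within 1.5 times or 1 SD and 48 moved, and of the values for named IDs 127 stayed on the same side of the threshold and 32 passed it, with no change of sign, and 1 had no adjusted p. The cause of these changes was not tested. The alternatives of the block fit and numbers 2 and 3 alone were chosen after seeing the data. Footprint counts down to 10 limit what the rarer long transcripts can show.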
